A study of Mus musculus with 19 samples.

Results

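A set of 10 genes that encode inositol phosphate phosphatases and kinases was followed in brain RNA-seq libraries of a mouse model of spinocerebellar ataxia type 17 (SCA17), an inherited ataxia caused by a lengthened glutamine tract in the general transcription factor TBP. The 10 genes were found by gene name among the 41128 genes of the deposited count table: *Inpp5a*, *Inpp5j*, *Itpka*, *Itpkb*, *Itpkc*, *Inpp1*, *Impa1*, *Inpp4a*, *Inpp4b* and *Ocrl*. The knock-in (KI) mice carried the germline Tbp-105Q allele, which the study's methods describe as made by crossing mice with a floxed mutant allele to EIIa-Cre mice, and the controls were wild-type (WT) mice. All mice were C57BL/6 and 3 months old. The cerebellum gave 3 WT and 4 KI libraries, and the striatum and the prefrontal cortex gave 3 WT and 3 KI libraries each, 19 in all. The libraries hold whole tissue, so fewer cells of a type and less RNA per cell cannot be told apart, and p-values measure the spread between these libraries.

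When Gq-coupled receptors activate phospholipase C, it splits the membrane lipid PIP2 and frees inositol trisphosphate (IP3), which opens the IP3 receptor and lets calcium out of the endoplasmic reticulum. IP3 is cleared along either of a pair of routes. A 5-phosphatase such as INPP5A removes a phosphate and ends the signal. Alternatively an IP3 3-kinase, ITPKA, ITPKB or ITPKC, adds a phosphate and makes a further signalling molecule. The products are stripped to free inositol by enzymes such as INPP1 and IMPA1. Related phosphatases (INPP5J, OCRL, INPP4A and INPP4B) are grouped here by their action on the lipids. Purkinje cells, the output neurons of the cerebellar cortex, are rich in this pathway.

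The libraries held 10639110 to 17431284 counts on genes, with a median of 15082703. Levels are given as CPM, counts scaled to the TMM-adjusted library size, and changes between groups as log2 fold changes from an edgeR quasi-likelihood fit with Benjamini-Hochberg adjustment over 16841 genes and a threshold of 0.05. *Tbp* itself stood at 48.5 to 56.6 CPM in KI and 52.5 to 62.0 CPM in WT cerebellum, and its log2 fold change was -0.14, -0.12 and -0.15 in cerebellum, striatum and prefrontal cortex, with none past the threshold. A gene count does not read the length of the repeat, so it does not check the genotype. Markers of granule cells and striatal projection neurons followed the region labels. The summed level of 8 granule cell markers was 3373 to 3952 CPM in WT cerebellum and at most 100.02 CPM in the WT forebrain libraries, with *Barhl1* at 3 counts or fewer in every forebrain library. The summed level of 8 striatal projection neuron markers was 9448 to 10832 CPM in WT striatum. The 6 markers of cortical excitatory neurons summed to 1219 to 1962 CPM in WT prefrontal cortex, but to 484 to 584 CPM in WT cerebellum, above the 17.8 to 233 CPM of WT striatum, and most of the cerebellar sum was *Slc17a7* at 458 to 558 CPM. Several libraries stood apart in tissue taken along with the region. WT prefrontal replicate 3 held 279 CPM of 4 summed olfactory bulb markers against 2.52 to 9.09 CPM in the other prefrontal libraries. Cerebellar WT replicate 1 and KI replicate 3 held 1926 and 4861 CPM of choroid plexus markers against 8.65 to 18.4 CPM in the other cerebellar libraries. All striatal libraries held choroid plexus markers, at 1525 to 8859 CPM in WT and 4189 to 7146 CPM in KI. Prefrontal libraries held 274 to 821 CPM of striatal projection neuron markers in WT and 181 to 1059 CPM in KI.

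TBP is the factor that binds the TATA box, so sequences before gene starts are shown. They are those of *Inpp5a* and the 3 IP3 3-kinases, the enzymes grouped here as acting on IP3. Each is the 250 bases before a RefSeq transcription start (GRCm38.p6), 5′ to 3′ on the gene's strand, with the GC box (GGGCGG or its reverse complement CCGCCC) in capitals. The *Inpp5a* stretch is chr7:139388859-139389108 (plus strand), that of *Itpka* chr2:119742087-119742336 (plus), that of *Itpkb* chr1:180330226-180330475 (plus) and that of *Itpkc* chr7:27228618-27228867 (minus).
Inpp5a: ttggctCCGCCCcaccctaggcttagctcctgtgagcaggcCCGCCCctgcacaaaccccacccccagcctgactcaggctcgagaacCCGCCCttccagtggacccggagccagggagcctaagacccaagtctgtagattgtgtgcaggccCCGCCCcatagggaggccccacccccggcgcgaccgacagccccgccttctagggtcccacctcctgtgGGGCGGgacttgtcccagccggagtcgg
Itpka: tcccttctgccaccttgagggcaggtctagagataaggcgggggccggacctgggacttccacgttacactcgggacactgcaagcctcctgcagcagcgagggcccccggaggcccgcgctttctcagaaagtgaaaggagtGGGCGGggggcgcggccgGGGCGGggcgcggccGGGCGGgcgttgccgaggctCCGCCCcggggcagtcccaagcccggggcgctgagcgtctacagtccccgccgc
Itpkb: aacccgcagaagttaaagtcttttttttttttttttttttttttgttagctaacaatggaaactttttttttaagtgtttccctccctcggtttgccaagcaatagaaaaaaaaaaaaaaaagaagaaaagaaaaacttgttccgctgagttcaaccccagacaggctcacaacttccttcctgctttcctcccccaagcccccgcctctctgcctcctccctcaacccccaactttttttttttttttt
Itpkc: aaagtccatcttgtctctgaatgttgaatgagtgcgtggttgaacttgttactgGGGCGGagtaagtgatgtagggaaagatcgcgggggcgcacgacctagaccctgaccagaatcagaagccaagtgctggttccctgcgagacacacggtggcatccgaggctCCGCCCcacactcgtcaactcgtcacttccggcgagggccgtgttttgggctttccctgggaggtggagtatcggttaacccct

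*Inpp5a* held 5 GC boxes in this window, the nearest beginning 28 bases before the start, *Itpka* held 4, *Itpkc* held 2 and *Itpkb* none. Another *Inpp5a* start in RefSeq, at position 139400494 within the gene (chr7:139389109-139579652, GRCm38, plus strand), had none in its 250 bases. RefSeq windows were matched for 8 of the 10 genes, and of the others *Inpp1* held 2 GC boxes, *Ocrl* 2 and *Inpp4b* none. The 3 windows of *Inpp4a* held 1, 4 and none. The first of these overlaps the next, and its 1 box is the same site as 1 of the 4. The TATA box (TATAAA or TTTATA) was in no window of any of the 8 genes, and no motif overlapped another within a window. Over 32817 RefSeq windows of this length, 32.7% held the GC box and 12.4% the TATA box. A letter match is a description of the window and not a bound site.

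Of the 4 enzymes grouped here as acting on IP3, *Inpp5a* had the largest difference between WT regions. Its WT level was 485, 478 and 465 CPM in the cerebellum. The striatal WT libraries held 92.7, 104 and 97.8 CPM and the prefrontal ones 67.4, 62.5 and 72.2 CPM. The 3 regions did not overlap, and the mean was 476 ± 10.4 CPM (SD, n = 3) in the cerebellum, so the striatum held 20.7% and the prefrontal cortex 14.1% of the cerebellar mean. The difference between the forebrain regions was smaller, with a log2 fold change of 0.55 for striatum over prefrontal cortex (standard error 0.118, edgeR quasi-likelihood test, Benjamini-Hochberg adjusted p = 0.00209).

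*Itpka*, the neuronal IP3 3-kinase that also binds actin in dendritic spines, ran the other way. It stood at 86.3, 110 and 103 CPM in WT cerebellum, 196, 194 and 197 CPM in WT striatum, and 247, 232 and 167 CPM in WT prefrontal cortex. Every cerebellar library was below every forebrain library, by log2 fold changes of -0.97 against the striatum (standard error 0.158) and -1.11 against the prefrontal cortex (standard error 0.158), and the forebrain regions overlapped. The other 3-kinases followed *Inpp5a* rather than *Itpka* in direction. *Itpkb* was at 22.2 ± 2.20 CPM in WT cerebellum, 7.81 ± 0.993 in WT striatum and 6.47 ± 1.32 in WT prefrontal cortex (SD, n = 3 each), and *Itpkc* at 22.6 ± 2.04, 10.7 ± 1.51 and 12.8 ± 2.31 CPM (SD, n = 3 each). Both were called higher in the cerebellum than in each forebrain region, *Itpkb* by log2 fold changes of 1.505 and 1.78 and *Itpkc* by 1.08 and 0.82 against striatum and prefrontal cortex. Of the exonic bases of *Itpkc*, 24.1% also belong to *BC024978* on the opposite strand, and the use of strand in counting is not given in the sources used here, so part of its count may be that gene's.

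Per length of exon the cerebellum and the forebrain had different leading enzymes. In WT cerebellum *Inpp5a* came first at 84.3 ± 1.83 CPM per kb of exon (SD, n = 3), 1.54 times *Itpka* at 54.7 ± 6.57, and their libraries did not overlap. In WT striatum *Itpka* came first at 107 ± 0.840 CPM per kb, 4.12 times the next gene, and *Inpp5a* had rank 4 at 17.4 ± 1.05 (SD, n = 3). In WT prefrontal cortex *Itpka* was at 118 ± 23.5 CPM per kb, 5.31 times the next, and *Inpp5a* again had rank 4 at 11.9 ± 0.858 (SD, n = 3). With the longest transcript as the length in place of all exons, *Inpp5a* had rank 1 in the cerebellum, 2 in striatum and 4 in prefrontal cortex. Of the summed level per kb of the 4 enzymes grouped here as acting on IP3, *Inpp5a* made up 58.0% ± 3.10 in WT cerebellum. It made up 13.6% ± 0.775 in WT striatum and 9.19% ± 2.28 in WT prefrontal cortex (SD, n = 3 each). The shares depended on the length used: per kb of the longest transcript they were 72.1% ± 2.45, 23.7% ± 1.19 and 16.5% ± 3.65 (SD, n = 3 each), and *Inpp5a* was 3.08 times *Itpka* in WT cerebellum. Per kb of exon, *Itpka* made up 37.6%, 84.2% and 88.4%, and *Itpkb* and *Itpkc* at most 1.46% and 2.94% of the mean in any WT region. The shares leave out the other 5-phosphatases, and any part of these in clearing IP3 was not tested. Among them, *Inpp5j* was at 44.0, 22.3 and 22.3 CPM per kb of exon in WT cerebellum, striatum and prefrontal cortex. *Ocrl* was at 6.86, 7.17 and 7.31 in the same order. With these in the sum, the *Inpp5a* shares would be lower. These are shares of messenger RNA and say nothing of enzyme activity.

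**Figure D1:**
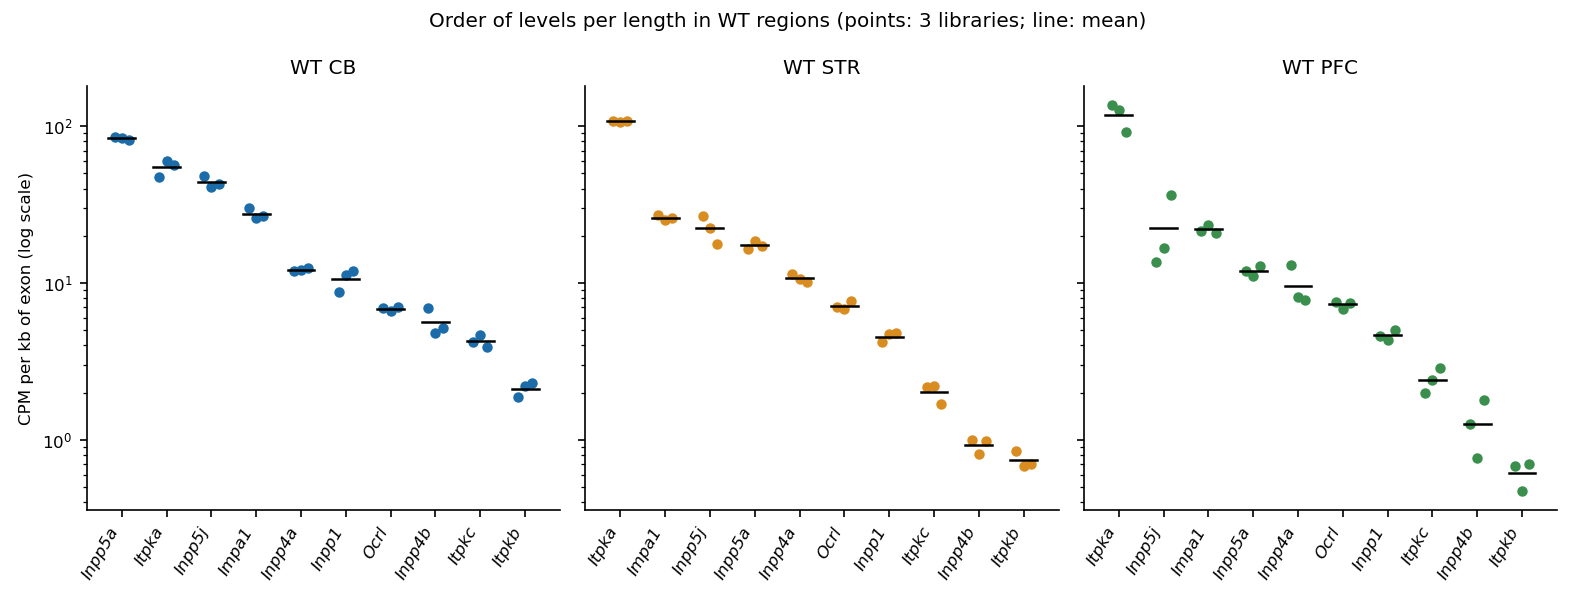
Level of the 10 genes in WT libraries as CPM per kb of exon (log axis), ordered by mean within each region; points are the 3 libraries and lines their mean. *Inpp5a* led in the cerebellum at 84.3 CPM per kb, while *Itpka* led in striatum at 107 and in prefrontal cortex at 118.

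**Figure D2:**
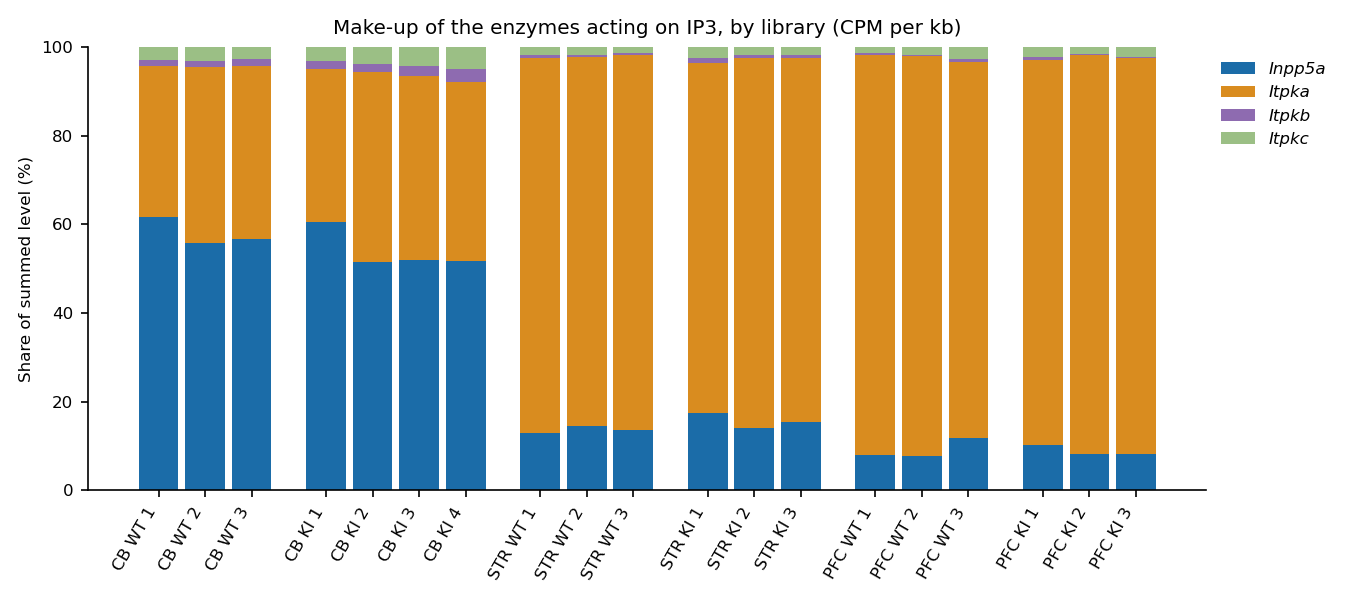
Share in percent of the summed CPM per kb of *Inpp5a*, *Itpka*, *Itpkb* and *Itpkc* in each of the 19 libraries, 1 bar a library. *Inpp5a* took 51.6% to 61.6% in the 7 cerebellar libraries and 7.82% to 17.4% in the 12 forebrain libraries.

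In the rest of the WT order, neighbours often overlapped. In the cerebellum *Itpka* and *Inpp5j* overlapped, as did *Inpp4a* and *Inpp1*, and *Ocrl* and *Inpp4b*; *Impa1* stood clear of its neighbours at 27.7 ± 2.11 CPM per kb, and *Itpkc* at 4.28 ± 0.386 and *Itpkb* at 2.12 ± 0.210 came last (SD, n = 3 each). In the striatum *Impa1*, *Inpp5j* and *Inpp5a* overlapped in sequence between 26.1 and 17.4 CPM per kb on the mean, followed without overlap by *Inpp4a*, *Ocrl*, *Inpp1* and *Itpkc*, and *Inpp4b* overlapped *Itpkb* at the end. In the prefrontal cortex *Inpp5j* overlapped *Impa1* and *Inpp5a* overlapped *Inpp4a*; the other neighbours did not overlap. *Itpkb* was last in each region.

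Among the enzymes downstream of IP3, *Inpp1*, which removes a phosphate from inositol bisphosphate, was at 68.6 ± 10.9 CPM in WT cerebellum, 29.4 ± 2.07 in striatum and 30.1 ± 2.23 in prefrontal cortex (SD, n = 3 each). The cerebellum exceeded the forebrain regions by log2 fold changes of 1.22 and 1.19, and all its libraries lay above theirs. *Impa1*, the lithium-sensitive inositol monophosphatase that completes the path to free inositol, was nearly even: its WT means were 150 ± 11.5, 142 ± 6.15 and 120 ± 6.69 CPM (SD, n = 3 each). It passed the threshold only for cerebellum over prefrontal cortex, where its log2 fold change was 0.33 (standard error 0.108, edgeR quasi-likelihood test, Benjamini-Hochberg adjusted p = 0.0167). That call was lost without cerebellar WT replicate 1 (edgeR, Benjamini-Hochberg adjusted p = 0.0765) and without prefrontal WT replicate 3 (edgeR, Benjamini-Hochberg adjusted p = 0.0565).

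The lipid phosphatases were of several kinds. *Inpp4b*, a 4-phosphatase of a 3-phosphorylated membrane lipid, was at 90.4, 62.3 and 67.7 CPM in WT cerebellum against 10.6 to 13.1 CPM in WT striatum and 9.97 to 23.3 CPM in WT prefrontal cortex. Its cerebellar libraries were all higher, by log2 fold changes of 2.59 and 2.15, beside 2.28 and 2.82 for *Inpp5a*. Its paralog *Inpp4a* was near even, at 126 ± 2.96, 111 ± 6.94 and 99.9 ± 30.2 CPM (SD, n = 3 each), and passed no test between regions. Its prefrontal WT libraries held 135, 84.5 and 80.5 CPM, and without replicate 1 the log2 fold change of cerebellum over prefrontal cortex was 0.61 (edgeR, Benjamini-Hochberg adjusted p = 0.00197) and that of striatum over prefrontal cortex 0.43 (edgeR, Benjamini-Hochberg adjusted p = 0.0319). *Inpp5j*, a 5-phosphatase of membrane lipids, was at 224 ± 19.6 CPM in the cerebellum and exceeded both forebrain regions by log2 fold changes of 0.98. The prefrontal value rested on WT prefrontal replicate 3, the library with olfactory bulb markers: it was 1.54 without that library and 0.72 without WT prefrontal replicate 1, and past the threshold in both. *Ocrl*, the X-linked lipid 5-phosphatase mutated in Lowe syndrome, was the most even gene, at 63.4 to 66.5 CPM in WT cerebellum, 64.7 to 72.9 CPM in WT striatum and 65.0 to 72.3 CPM in WT prefrontal cortex.

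In counts, 6 of the 10 genes were called higher and 1 lower in WT cerebellum than in WT striatum, beside 27.8% of all tested genes called higher and 28.7% lower. Against the WT prefrontal cortex 7 were called higher and 1 lower, beside 25.1% and 26.9%. Between WT striatum and WT prefrontal cortex 1 of the 10, *Inpp5a*, was called higher and 0 lower, beside 14.0% and 16.4%. The median log2 fold change of the 10 genes was 1.03 for cerebellum against striatum and 0.90 for cerebellum against prefrontal cortex, beside -0.00185 and 0.00382 over all tested genes.

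The second question was whether the KI mice differed from WT in these enzymes, and in which regions. In the cerebellum *Inpp5a* was the only one of the 10 to pass the test. Its level was 418, 344, 293 and 278 CPM in the 4 KI libraries, against the 465 to 485 CPM of the 3 WT libraries. All KI libraries lay below all WT libraries, and their spread was wider, with a standard deviation of 63.3 CPM against 10.4. The KI mean of 333 CPM was 70.0% of the WT mean, a log2 fold change of -0.51 (95% interval -0.74 to -0.29, edgeR quasi-likelihood test, Benjamini-Hochberg adjusted p = 0.0275). An exact two-sided permutation test on the log2 CPM of 4 against 3 libraries gave p = 0.0571, or 0.171 adjusted over the 3 regions, and 0.0571 is the smallest p it can give. The call rested on each of 6 libraries: without KI replicate 2, 3 or 4 the adjusted p was 0.0560, 0.0867 and 0.0655, and without WT replicate 1, 2 or 3 it was 0.0856, 0.117 and 0.0981 (edgeR, Benjamini-Hochberg). Without KI replicate 1, the highest KI library, it was 0.00097 (edgeR, Benjamini-Hochberg). The call was also lost with each region fitted alone (edgeR, Benjamini-Hochberg adjusted p = 0.113) and with a replicate block within regions (adjusted p = 0.0678).

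*Inpp5a* shares 4.36% of its exonic bases with *Nkx6-2* on the opposite strand. *Nkx6-2* stood at 11.9 to 17.0 CPM in WT and 14.5 to 22.4 CPM in KI cerebellum, with a log2 fold change of 0.29 that did not pass the test, and its WT mean was 14.7 CPM beside 476 CPM for *Inpp5a*.

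None of the 3-kinases was called in the KI cerebellum. *Itpka* was at 77.2, 91.9, 75.7 and 69.8 CPM in the KI libraries, overlapping the WT range, with a log2 fold change of -0.34 (95% interval -0.65 to -0.03, edgeR, Benjamini-Hochberg adjusted p = 0.435). *Itpkb* was at 20.9 to 30.7 CPM, with a log2 fold change of 0.15 (95% interval -0.25 to 0.56), and *Itpkc* at 20.996 to 24.7 CPM, with 0.02 (95% interval -0.28 to 0.31). Among the 4 enzymes grouped as acting on IP3, *Inpp5a* took 60.5%, 51.6%, 51.9% and 51.7% of the summed level per kb in KI. In the WT libraries it took 61.6%, 55.8% and 56.7%. KI replicate 1 lay within the WT range and the other 3 below it. The ratio of *Inpp5a* to *Itpka* per kb was 1.204 to 1.74 in KI and 1.41 to 1.81 in WT cerebellum, so those ranges overlapped.

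Of the downstream and lipid enzymes, *Inpp5j* had a cerebellar change of nearly the same size as *Inpp5a* but with a wider error. Its KI libraries held 173, 148, 143 and 178 CPM, all below the WT libraries at 246, 208 and 219 CPM. The log2 fold change was -0.48, with a standard error of 0.227 beside 0.107 for *Inpp5a*, and it did not pass the threshold (edgeR, Benjamini-Hochberg adjusted p = 0.491). *Inpp4a* was also lower in every KI library, at 93.3 to 119 CPM against 123 to 129 CPM, with a log2 fold change of -0.31 (95% interval -0.63 to 0.02) that did not pass. *Inpp1* had -0.29 (95% interval -0.53 to -0.05, edgeR, Benjamini-Hochberg adjusted p = 0.376). *Impa1*, *Ocrl* and *Inpp4b* had log2 fold changes of -0.03, -0.01 and 0.14, and their KI and WT libraries overlapped.

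**Figure D3:**
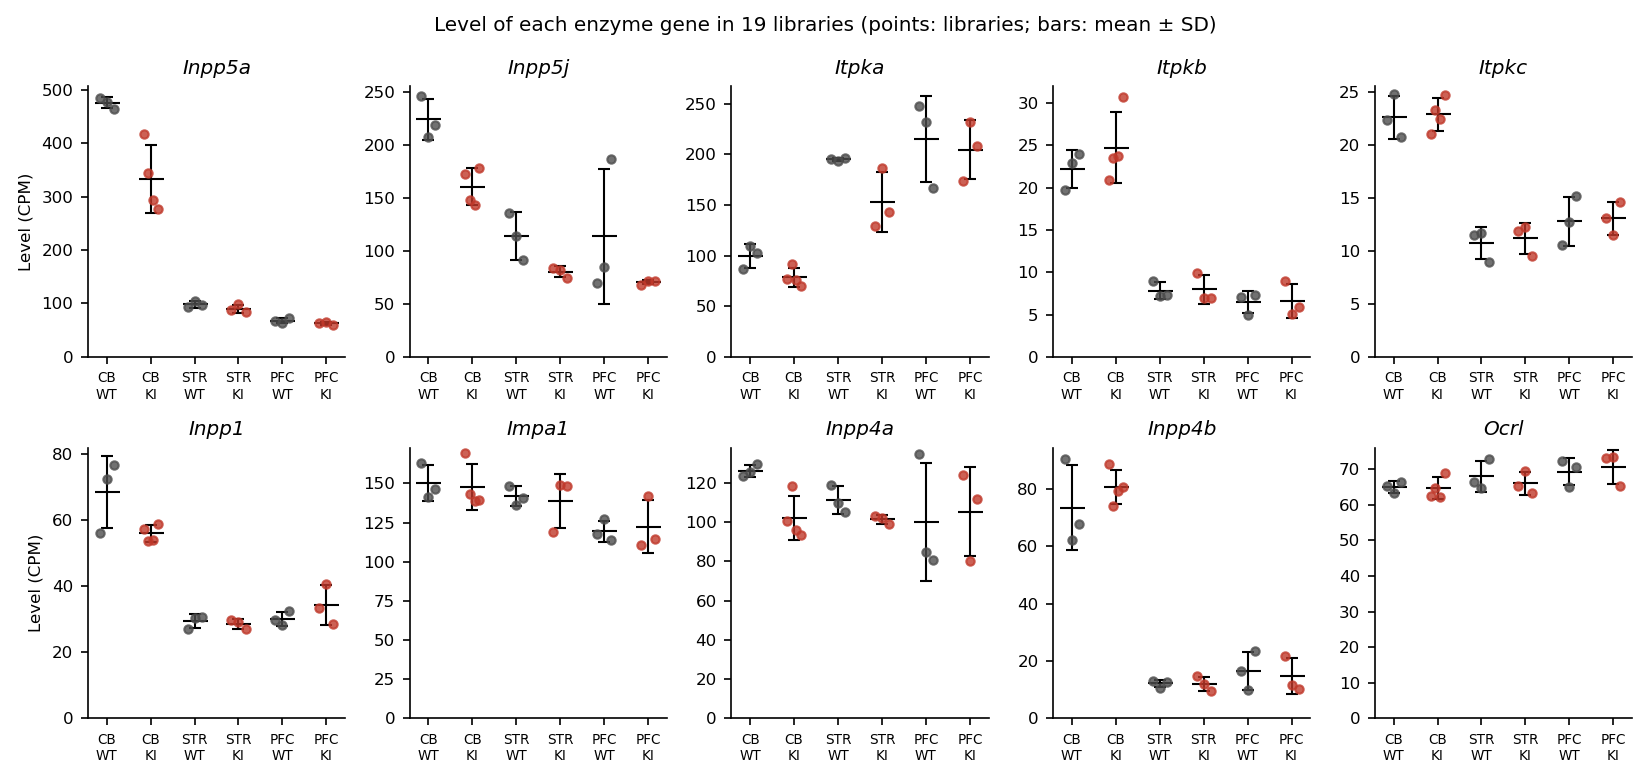
CPM of each of the 10 genes in every library, by region and genotype; points are libraries, the horizontal line the mean and the bars 1 SD, with each axis starting at 0. *Inpp5a* in the cerebellum fell from 465 to 485 CPM in WT to 278 to 418 CPM in KI, while *Ocrl* held between 62.3 and 73.6 CPM in all libraries.

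In the striatum no gene of the 10 was called. *Inpp5a* stood at 88.5, 98.6 and 84.2 CPM in KI, overlapping the WT range of 92.7 to 104 CPM, with a log2 fold change of -0.12 (95% interval -0.37 to 0.13). *Itpka*, the leading enzyme there, was at 130, 187 and 143 CPM in KI against 194 to 197 CPM in WT. All its KI libraries were lower, with a log2 fold change of -0.35 (95% interval -0.68 to -0.02, edgeR, Benjamini-Hochberg adjusted p = 0.564). The summed level of the 8 striatal projection neuron markers was 5099 to 7389 CPM in those KI libraries and 9448 to 10832 CPM in WT, and 7 of the 8 had negative log2 fold changes with none called; its part in the *Itpka* values was not tested. *Inpp5j* was at 84.1, 82.3 and 74.4 CPM in KI striatum against 136, 114 and 90.9 CPM in WT, again without overlap, with a log2 fold change of -0.50 that did not pass (edgeR, Benjamini-Hochberg adjusted p = 0.631). The other 7 genes had log2 fold changes between -0.14 and 0.06 there, of which *Inpp4a* at -0.14 was also lower in each KI library.

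In the prefrontal cortex no gene of the 10 was called either, and no gene had KI and WT libraries apart. *Inpp5a* was at 63.3, 65.5 and 59.9 CPM in KI and 67.4, 62.5 and 72.2 CPM in WT, with a log2 fold change of -0.10 (95% interval -0.35 to 0.15). *Inpp5j* had the largest log2 fold change of the 10 in this region, -0.69 (edgeR, Benjamini-Hochberg adjusted p = 0.680), and it turned on 1 library. Its KI libraries held 67.9, 71.1 and 71.5 CPM, and the WT libraries held 69.6 and 84.9 CPM and, in replicate 3, 186 CPM. Replicate 3 is the library with olfactory bulb markers: 3 of those 4 markers were tested, each with a negative log2 fold change in KI and none called. Without it the *Inpp5j* change was -0.14, and the log2 fold change of *Inpp5j* in WT striatum over WT prefrontal cortex was then 0.56 (edgeR, Benjamini-Hochberg adjusted p = 0.00874), where with it the difference was 0.00066. *Itpka* had -0.07, *Inpp1* 0.19 and *Inpp4b* -0.17, and the other genes lay between 0.03 and 0.07.

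**Figure D4:**
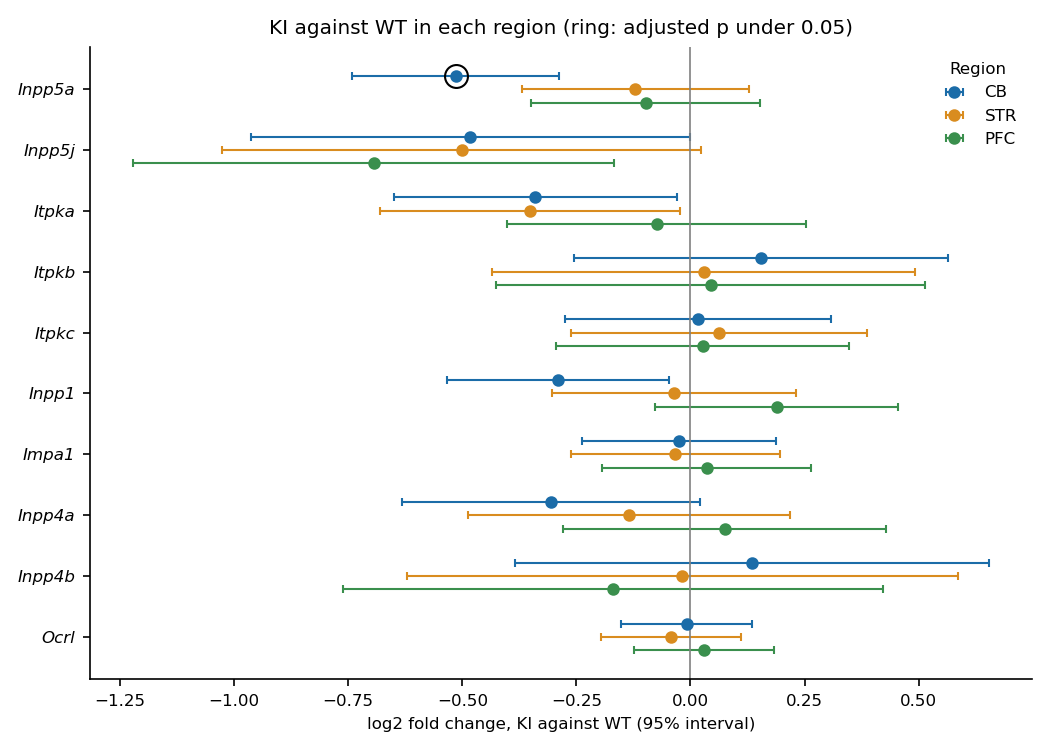
Log2 fold change of KI against WT for each gene by region (CB, cerebellum; STR, striatum; PFC, prefrontal cortex), with 95% intervals from the edgeR fit; a ring marks an adjusted p under 0.05. Only *Inpp5a* in the cerebellum, at -0.51, has a ring, and *Inpp5j* lies between -0.69 and -0.48 in the 3 regions with wider intervals.

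By count, 1 of the 10 genes was called in the cerebellum and 0 in either forebrain region, beside 0.831%, 0.582% and 0.107% of all tested genes. At an unadjusted p under 0.05 the edgeR test counted 1705, 1368 and 998 of all 16841 genes in the 3 regions. KI and WT libraries did not overlap for 3 of the 10 genes in cerebellum, 3 in striatum and 0 in prefrontal cortex, beside 12.3%, 14.1% and 8.69% of all tested genes. The median log2 fold change of the 10 genes was -0.16 for the cerebellar comparison, -0.04 for the striatal and 0.03 for the prefrontal one, beside 0.0073, -0.0073 and 0.0019 over all tested genes.

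Whether the KI effect on *Inpp5a* differed between regions was tested directly. The cerebellar effect minus the striatal one was -0.39 on the log2 scale (95% interval -0.73 to -0.06, unadjusted p = 0.0248 and adjusted p = 0.636 in edgeR with Benjamini-Hochberg), and minus the prefrontal one -0.42 (95% interval -0.75 to -0.08, unadjusted p = 0.0192 and adjusted p = 0.688 in edgeR with Benjamini-Hochberg). These intervals lay below 0, but neither difference passed the adjustment over all genes. None of the 10 genes was called in either comparison of effects, beside 0.0119% and 0.0178% of all tested genes. The comparisons share the cerebellar libraries.

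The fall of *Inpp5a* in the cerebellum came with lower levels of Purkinje cell genes. All 10 Purkinje cell markers had negative log2 fold changes in the KI cerebellum, between -1.16 and -0.26 with a median of -0.54, and 9 of the 10 had no overlap between KI and WT libraries, beside 12.3% of all tested genes. Of the 10, 3 were called, beside 0.831% of all tested genes, among them *Pcp2*, a regulator of G protein signalling, at -1.16 and *Gng13*, a G protein gamma subunit, at -1.10. Their summed level was 5645, 4971, 4003 and 4156 CPM in the 4 KI libraries, against 6542 to 7041 CPM in WT, so the KI mean was 68.9% of the WT mean, beside 70.0% for *Inpp5a*. Divided by this sum, *Inpp5a* was 0.0741, 0.0692, 0.0733 and 0.0668 in the KI libraries and 0.0741, 0.0679 and 0.0679 in the WT libraries. The KI and WT values of that ratio overlapped. The 10 markers were not exclusive to the cerebellum. Their summed level was 812 to 842 CPM in WT striatum and 572 to 862 CPM in KI striatum. In the KI striatum 1 of the 10 was called lower, beside 0.582% of all tested genes called in either direction, and their median log2 fold change was -0.10.

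**Figure D5:**
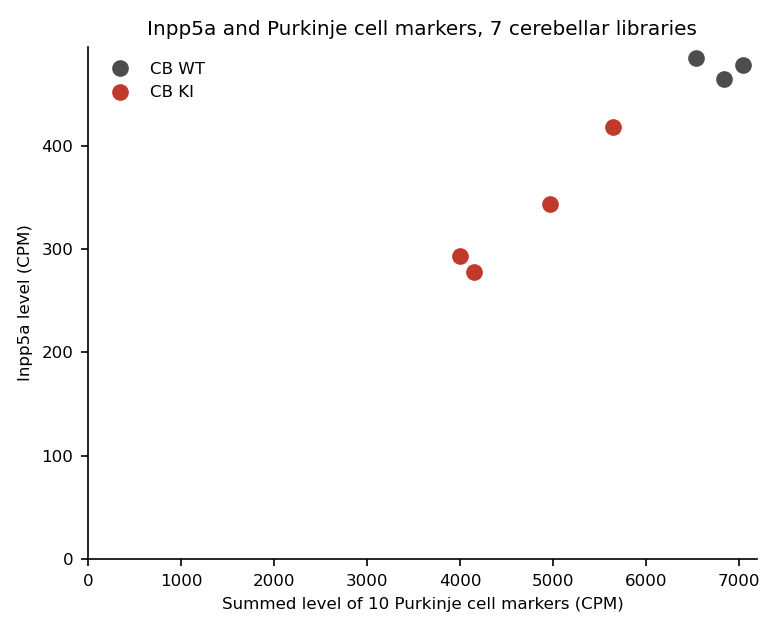
*Inpp5a* CPM against the summed CPM of 10 Purkinje cell markers in the 7 cerebellar libraries, with both axes starting at 0. The KI libraries lie at 278 to 418 CPM of *Inpp5a* and 4003 to 5645 CPM of markers, and the WT libraries at 465 to 485 and 6542 to 7041 CPM.

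Markers of other cell types were measured in the same libraries. The 8 granule cell markers had a median log2 fold change of -0.23 with 0 called, and their summed level was 3158 to 3398 CPM in KI and 3373 to 3952 CPM in WT cerebellum. Of 6 microglia markers 4 were called higher, beside 0.831% of all tested genes called in either direction. Their median log2 fold change was 0.77, with summed levels of 137 to 201 CPM in KI and 94.2 to 96.1 CPM in WT. The 6 astrocyte and 6 oligodendrocyte markers had medians of 0.15 and -0.06, with 0 called in either list. The part of any of these cell types in the *Inpp5a* values was not tested.

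Of the 5-phosphatase family outside these 10 genes, no member was called in the KI mice. These are *Inpp5b*, *Inpp5d*, *Inpp5e*, *Inpp5f*, *Inpp5k*, *Inppl1*, *Synj1* and *Synj2*, of which SHIP1 (*Inpp5d*) works in blood cells and microglia and the synaptojanins strip coated vesicles at synapses. None of the 8 was called in any region, beside 0.831%, 0.582% and 0.107% of all tested genes in cerebellum, striatum and prefrontal cortex. At these shares, most lists of 8 genes would hold no called gene. Their cerebellar log2 fold changes ran from -0.18 to 0.43 with a median of -0.01. *Inpp5d* had the largest, 0.43, at only 3.02 CPM in WT cerebellum (edgeR, Benjamini-Hochberg adjusted p = 0.351). *Inpp5e*, the 5-phosphatase of primary cilia, was lower in all 4 KI libraries, at 80.3 to 92.5 CPM against 94.5 to 99.6 CPM, a log2 fold change of -0.18 (edgeR, Benjamini-Hochberg adjusted p = 0.489). *Inpp5f* varied among WT replicates, at 189, 96.8 and 190 CPM, and *Inpp5k*, at 132 to 154 CPM in KI and 145 to 163 CPM in WT, had -0.12. The values of *Inpp5b*, *Inppl1*, *Synj1* and *Synj2* were -0.10, 0.13, 0.08 and -0.18. In WT mice 3 of the 8 were called higher in the cerebellum than in the striatum, where 27.8% of all tested genes were. These were *Inpp5b*, *Inpp5e* and *Inpp5k*, by 0.76 to 1.25, beside 2.28 for *Inpp5a*. *Inpp5d* was called lower, by a log2 fold change of -2.46, where 28.7% of all tested genes were.

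Along the rest of the pathway, 1 gene was called in the KI cerebellum. Of 19 genes of phospholipase C signalling and calcium release, 1 was called, lower, beside 0.831% of all tested genes called in either direction. It was *Plcb3*, a phospholipase C that makes IP3. *Plcb3* stood at 46.4, 41.2, 38.4 and 42.2 CPM in KI against 65.7, 90.1 and 78.0 CPM in WT, without overlap. Its log2 fold change was -0.89 (standard error 0.116, edgeR, Benjamini-Hochberg adjusted p = 0.000418), against a list median of -0.06. *Plcb3*, which makes IP3, and *Inpp5a*, which clears it, were both below their WT range in the same 4 libraries. Of 10 kinases that supply PIP2, 0 were called in any region, beside 0.831%, 0.582% and 0.107% of all tested genes in cerebellum, striatum and prefrontal cortex. The most abundant in WT cerebellum, *Pip5k1c*, *Pi4ka* and *Pi4k2a*, had -0.06, -0.05 and -0.01. Of 19 genes of inositol recycling and of the higher inositol phosphates, 0 were called in any region, beside the same shares, with a cerebellar median of 0.08. At these shares, most lists of this size would hold no called gene. The most abundant of these 19 genes in WT cerebellum were *Ip6k1* at 0.11, *Nudt3* at -0.08 and *Ppip5k1* at -0.21. *Ppip5k1* was lower in all KI libraries but not past the threshold (edgeR, Benjamini-Hochberg adjusted p = 0.372).

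Over the 19 libraries, the genes whose log2 CPM was most like that of *Inpp5a* included *Sbk1* (Pearson r = 0.988), *Fam69a* (0.986), *Cep72* (0.985) and *Arhgef33* (0.985). The libraries share their regions, so these values largely describe the step from forebrain to cerebellum. Each of these 4 was higher in WT cerebellum than in WT striatum, by 0.92 to 5.84 on the log2 scale, and had a negative and uncalled log2 fold change in the KI cerebellum, between -0.52 and -0.14. Among the other 9 enzymes r ran from 0.932 for *Itpkb* to -0.876 for *Itpka*. For deviations from the 6 group means the 5 highest values were 0.889 for *Ighg1*, an immunoglobulin gene at 0 CPM in WT cerebellum, 0.819 for *Ccdc88c*, 0.818 for *Kcna4*, 0.810 for *Rpsa* and 0.800 for *Prkca*. None of these was called in the KI cerebellum, and the highest value among the other enzymes was 0.403, for *Impa1*.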

How the data were processed

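RNA from cerebellum, striatum and prefrontal cortex was made into SMART-Seq v4 and Nextera XT libraries and sequenced on a HiSeq instrument. The authors deposited raw counts per Ensembl gene, and a signal table, deposited by the authors as well, that holds the same counts divided by 1 size factor per library. The submitters' processing notes name bcl2fastq 2.17.1.14, STAR 2.5.2b, HTSeq, DESeq2 1.10.1 and the build GRCm38.p3, whereas the paper's methods name the Cufflinks package; strand use is not given in the sources used here. Names, positions and exon lengths came from GENCODE M21 (GRCm38), which has 40254 of the 41128 genes, and promoter sequences from RefSeq (GRCm38.p6).

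The count analysis used edgeR 4.0.16 in R 4.3.3. The filter filterByExpr over the 6 groups left 16841 genes, all 10 enzymes among them, libraries were scaled by TMM, and 1 quasi-likelihood fit over 19 libraries (13 residual degrees of freedom, common biological coefficient of variation 0.191) gave every contrast, with Benjamini-Hochberg adjustment and a threshold of 0.05. Log2 CPM used a prior count of 2. The script was tested on simulated counts. Alternatives were DESeq2 1.42.0, its size factors in edgeR, no filter, at least 10 counts in every library, limma 3.58.1 on log2(value + 1) of the deposited signal, a covariate for sex (10 of 19 libraries had more *Xist* than Y-linked counts, with both sexes in every group), regions fitted singly, a block on the replicate number, and each library left out in turn.

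The members, gene lists and tests were chosen with earlier results of these data known. Named were all 10 genes, the other 5-phosphatases, *Tbp*, the called genes of the other pathway lists or else their 3 most abundant genes in WT cerebellum, at most 3 markers of a cell type, and the 5 genes most like *Inpp5a* by each measure. Some of these genes are not reported here by name. The ratio of *Inpp5a* to the summed markers was chosen after the values were seen. KI and WT libraries of the same number did not deviate together (correlations -0.245 to 0.172), so those numbers were not read as pairs; striatal and prefrontal libraries of the same genotype and number did (0.233 to 0.368 in all 6 pairs), and the cerebellar libraries did not pair with either. No 2 libraries of a group were alike within sampling noise. Promoter windows were matched for 8 of the 10 genes; protein sequences were not used here.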

Additional observations from a re-analysis of the deposited data

Results flagged for a closer look

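For 4 measures there was a KI cerebellar library far from the other 3, by the gap to the nearest library divided by the whole range; chance alone would set about 1 in 20 such groups apart. *Impa1* was at 170 CPM in replicate 1 and 139 to 143 CPM in the others (gap 0.859 of the range). In the same replicate 1, *Inpp5a* made up 60.5% of the 4 enzymes grouped as acting on IP3, against 51.6% to 51.9% (gap 0.961). Its ratio to *Itpka* per kb was 1.74 against 1.204 to 1.28 (gap 0.858). The share and the ratio rest on much the same values. Summed choroid plexus markers were at 4861 CPM in replicate 3 and 9.31 to 14.5 CPM in the others (gap 0.999).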

How the results depend on the processing

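The direction of *Inpp5a* in the KI cerebellum held under every alternative run. It was past the threshold in DESeq2, with its size factors, under both other filters, in limma and with the covariate for sex (log2 fold change -0.54 to -0.51), and not with each region alone (-0.51, edgeR, Benjamini-Hochberg adjusted p = 0.113) or with a replicate block within regions (-0.45, adjusted p = 0.0678). Leaving out 1 library gave -0.64 to -0.44. Its differences between WT regions and its other KI contrasts kept their side of the threshold in each alternative. A replicate block across regions changed no call of the 10 genes between WT regions. The block was not limited to striatal and prefrontal libraries. It was also used for the contrasts with the cerebellum, whose libraries did not pair with those of either forebrain region.

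Over all genes, the KI calls numbered 140, 98 and 18 in cerebellum, striatum and prefrontal cortex, 336, 214 and 52 in DESeq2, 46 (striatum) and 0 (prefrontal cortex, 571 at an unadjusted p under 0.05) with each region alone, and 9 in prefrontal cortex with the replicate block. With 1 library left out they ran from 73 to 151, 36 to 121 and 5 to 16; the cerebellar count was 73 without WT replicate 2 and 78 without WT replicate 3. In striatum it was 36 to 59 without KI replicate 1 or 3 or any WT replicate, and in prefrontal cortex 5 to 10 without KI replicate 3 or WT replicate 1 or 2. Differences of the KI effect numbered 2 (cerebellum minus striatum), 3 (cerebellum minus prefrontal cortex) and 0 (striatum minus prefrontal cortex, edgeR, with 743 at an unadjusted p under 0.05). They were 50, 32 and 12 in DESeq2, 8 and 1 in the first 2 with the block within regions, 1 in the first with the block across regions or the sex covariate, and 1 to 6, 1 to 4 and 0 to 1 with 1 library left out. The causes were not tested.

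Per kb of the longest transcript, *Inpp5a* was at 168 in WT cerebellum, 34.8 in striatum and 23.8 in prefrontal cortex.

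Small uncalled KI changes crossed 0. *Itpkb* was -0.082 (striatum) and -0.056 (prefrontal cortex) with the sex covariate, and *Itpkc* -0.020 in cerebellum with the replicate block. With 1 library left out the cerebellar ranges were -0.041 to 0.088 (*Itpkc*), -0.10 to 0.040 (*Impa1*), -0.042 to 0.0093 (*Ocrl*) and -0.085 to 0.32 (*Inpp5f*). The striatal ranges were -0.16 to 0.14 (*Itpkb*), -0.046 to 0.17 (*Itpkc*), -0.091 to 0.0051 (*Inpp1*), -0.088 to 0.065 (*Impa1*), -0.19 to 0.12 (*Inpp4b*) and -0.082 to 0.014 (*Ocrl*). The prefrontal ranges were -0.23 to 0.038 (*Itpka*), -0.24 to 0.20 (*Itpkb*), -0.094 to 0.17 (*Itpkc*), -0.094 to 0.10 (*Impa1*), -0.062 to 0.35 (*Inpp4a*), -0.59 to 0.16 (*Inpp4b*) and -0.015 to 0.084 (*Ocrl*). Between WT striatum and prefrontal cortex they were -0.25 to 0.56 (*Inpp5j*), -0.080 to 0.037 (*Inpp1*) and -0.071 to 0.023 (*Ocrl*). *Pcp2* was not tested under the filter of 10 counts in every library and not called in limma (adjusted p = 0.0975).

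With 3 or 4 libraries a group, the 95% interval of a cerebellar KI change was as narrow as -0.15 to 0.14 (*Ocrl*). It was as wide as -0.38 to 0.65 (*Inpp4b*). These widths are not limits of detection, since a call also had to pass the adjustment over all tested genes. The cerebellar intervals of *Itpka* and *Inpp1* left out 0, and neither gene was called. An uncalled change is therefore not shown to be absent.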
